A study of Homo sapiens with 12 samples.

Results

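The 45 genes described here encode the chaperones of the cytosol, the mitochondria and the endoplasmic reticulum (ER), with HSF1, the transcription factor of the heat shock response. They were chosen by name, as known members of the folding machinery, and with earlier results of these data known. All 45 were found among the 28087 genes of the count table. Each was represented by its RefSeq transcript with the most counts over the 12 libraries. RNA sequencing gave their levels in the human melanoma line MV3, in 4 groups of 3 libraries. For 24 h the cells received extracellular vesicles (EVs) from M1 macrophages (M1 EV), M0 macrophages (M0 EV) or M2 macrophages (M2 EV), at 1e10 particles in each well, or PBS (Ctrl). The vesicles were collected by ultracentrifugation from macrophages made of THP-1, a monocytic leukaemia line, after 48 h of polarization by agents the labels do not name. All groups, Ctrl included, had been moved from DMEM to RPMI medium with 1% EV-depleted serum 3 h before treatment, in 12-well plates. The labels number the libraries of a group but do not say whether these were separate cultures or vesicle preparations, so errors and p-values reflect how much these samples vary, which may be technical variation.

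Chaperones bind unfolded or partly folded proteins, and many, though not all, use ATP cycles to release them for folding. In the cytosol, HSP70 proteins take up extended chains with the help of J-domain partners, HSP90 finishes signalling proteins such as kinases and steroid receptors, and the ring-shaped TRiC/CCT complex folds actin and tubulin. Mitochondria have their own HSP70, HSP90 and HSP60 with its HSP10 lid. The ER holds BiP, GRP94, the lectins calnexin and calreticulin, and protein disulfide isomerases. Heat shock elements bound by HSF1 and ER stress elements bound by ATF6 are the classical control sequences of the cytosolic and ER genes. Melanoma cells, like other tumour cells, carry high levels of many of these proteins.

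The promoters of 5 members are shown because they hold these classical elements and belong to genes whose levels were higher in M1 EV libraries. They come from RefSeq (GRCh38.p14) and run 5′ to 3′ from 250 bases before to 50 bases after an annotated start. Capitals mark the matches to the core of the heat shock element, GAANNTTC or TTCNNGAA, in the first 4, and to the ER stress element, CCAAT followed after 9 bases by CCACG, in the last. Both strands were searched, and neighbouring heat shock matches can share bases. The window of HSPA1A lies at chr6:31815293-31815592, plus strand, that of HSPA8 at chr11:123062087-123062386, minus strand, HSP90AB1 at chr6:44247693-44247992, plus strand, HSPD1 at chr2:197499791-197500090, minus strand, and HSPA5 at chr9:125241294-125241593, minus strand. HSP90AB1 and HSPD1 have other annotated starts whose windows hold no match. For both, the window shown belongs to an inner start and lies within the gene as annotated, which for HSP90AB1 begins at 44246194.
HSPA1A: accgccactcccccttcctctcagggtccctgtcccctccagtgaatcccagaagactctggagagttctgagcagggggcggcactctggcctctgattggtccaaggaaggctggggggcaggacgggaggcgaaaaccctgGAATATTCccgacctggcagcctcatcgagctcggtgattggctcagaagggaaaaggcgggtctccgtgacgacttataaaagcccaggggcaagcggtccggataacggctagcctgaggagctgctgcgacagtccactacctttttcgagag
HSPA8: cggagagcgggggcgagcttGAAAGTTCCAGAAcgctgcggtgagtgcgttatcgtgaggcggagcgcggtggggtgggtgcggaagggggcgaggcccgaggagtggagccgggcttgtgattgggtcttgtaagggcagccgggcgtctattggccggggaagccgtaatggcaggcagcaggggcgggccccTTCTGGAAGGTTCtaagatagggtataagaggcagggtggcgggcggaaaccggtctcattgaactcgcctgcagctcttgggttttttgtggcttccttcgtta
HSP90AB1: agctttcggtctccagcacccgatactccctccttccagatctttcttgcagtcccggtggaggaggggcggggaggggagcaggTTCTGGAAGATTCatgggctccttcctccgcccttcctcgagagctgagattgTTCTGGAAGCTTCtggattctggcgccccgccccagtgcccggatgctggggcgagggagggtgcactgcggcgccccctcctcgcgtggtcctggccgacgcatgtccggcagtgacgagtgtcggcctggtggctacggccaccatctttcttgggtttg
HSPD1: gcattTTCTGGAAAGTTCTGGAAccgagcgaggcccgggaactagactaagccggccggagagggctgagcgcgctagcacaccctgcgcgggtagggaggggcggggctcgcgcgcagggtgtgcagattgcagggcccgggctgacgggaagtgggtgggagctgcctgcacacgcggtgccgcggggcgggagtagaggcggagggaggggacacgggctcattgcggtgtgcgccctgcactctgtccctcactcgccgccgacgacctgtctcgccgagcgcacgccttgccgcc
HSPA5: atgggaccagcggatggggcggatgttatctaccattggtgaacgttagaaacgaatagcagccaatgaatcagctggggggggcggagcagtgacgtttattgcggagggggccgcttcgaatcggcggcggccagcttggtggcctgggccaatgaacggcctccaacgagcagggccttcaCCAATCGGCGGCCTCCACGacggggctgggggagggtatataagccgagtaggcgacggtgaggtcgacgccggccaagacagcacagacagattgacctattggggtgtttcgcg

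Each library held between 9694683 and 14379483 counts over genes, and 13113 genes, all 45 members among them, had enough counts to be tested. Levels are given in CPM, counts scaled to a common library size. On the first principal component of log2 CPM, which held 43.2% of the variance, the M1 EV libraries lay at 21.95 to 23.82 and the other libraries at -9.86 to -6.01. The melanocyte markers S100B, TYR and DCT had no count in any library and SOX10 had none in the M1 EV or Ctrl libraries, while VIM (5162 CPM in M1 EV, 5065 CPM in Ctrl) and AXL (1038 CPM in M1 EV, 1311 CPM in Ctrl) were abundant. Of the 16 melanoma and melanocyte markers 9 could be tested in M1 EV against Ctrl: S100A6, SOX9, AXL and SPARC were lower, MCAM was higher and 4 did not pass. The summed level of the 16 was 8702 to 8941 CPM in M1 EV libraries, 9442 to 9682 CPM in M0 EV, 9265 to 9516 CPM in M2 EV and 9493 to 9803 CPM in Ctrl libraries. Of 20 macrophage markers, CD163, TYROBP, C1QA, C1QB, C1QC and MARCO had no count in any library. The summed level of the 20 was 70.8 to 72.5 CPM in M1 EV libraries, 58.6 to 60.03 CPM in M0 EV, 60.7 to 63.2 CPM in M2 EV and 55.7 to 63.1 CPM in Ctrl libraries, of which CD68 made up 66.9 CPM in M1 EV and 56.7 CPM in Ctrl. CD68 and CTSS were the markers with enough counts to be tested, and both were higher in M1 EV against Ctrl, by 0.24 and 1.98 on the log2 scale. The part of both marker lists in the results below was not tested. The labels name no batch.

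In cells given M1 vesicles, 34 of the 45 chaperone genes were higher than in Ctrl cells and 1, BAG3, was lower (edgeR quasi-likelihood test with Benjamini-Hochberg adjusted p below 0.05), while 10 did not pass the test. Over all 13113 genes, 14.3% were called higher and 13.7% lower in the same comparison. The members were chosen with earlier results of these data known, so the gap between these shares is no test of the list. Among 116 other tested folding genes, 31 were called higher and 6 lower. Differences of the members were small and mostly in 1 direction. Their median log2 fold change was 0.19, against 0.001 over all tested genes, and they ranged from -0.27 (BAG3) to 0.41 (FKBP4). Summed over the 45 genes, the level was 24026 ± 273 CPM in M1 EV libraries and 21437 ± 231 CPM in Ctrl libraries (SD, n = 3 each), 12.1% higher. In bulk samples fewer cells of a type and less RNA per cell cannot be told apart.

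**Figure D1:**
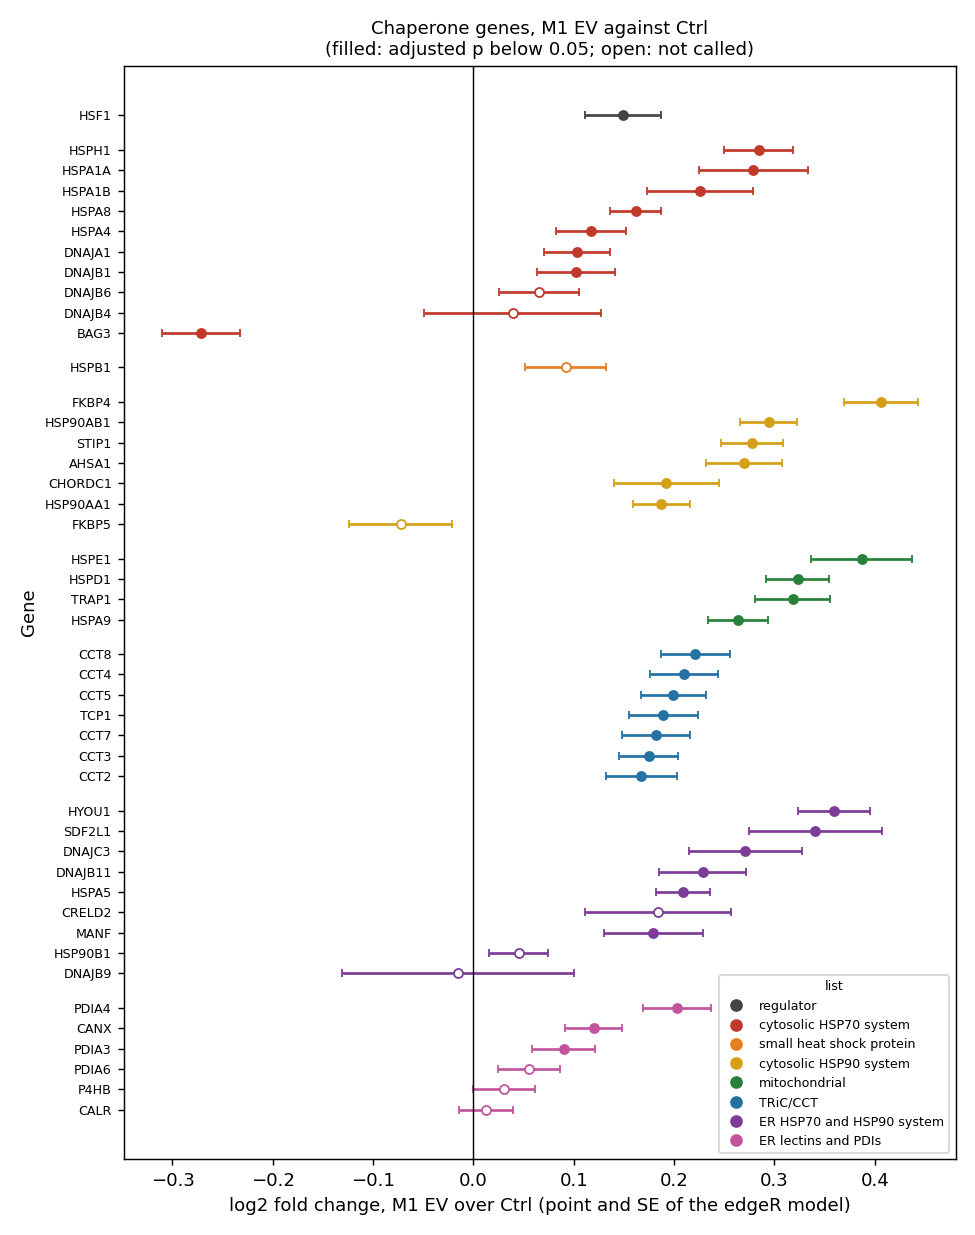
Log2 fold change of each of the 45 chaperone genes in M1 EV over Ctrl (horizontal axis), with the standard error of the edgeR model as bars, grouped by list down the page; filled points had an adjusted p below 0.05 and open points did not. The mitochondrial and TRiC/CCT genes all lie to the right of 0 and are filled, and BAG3 at -0.27 is the only filled point to the left.

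HSF1, the activator of heat shock genes, was slightly higher in M1 EV libraries. It had 172, 173 and 168 CPM in the M1 EV libraries, 158, 161 and 158 CPM in the M0 EV libraries, 157, 155 and 155 CPM in the M2 EV libraries, against 162, 147 and 154 CPM in the Ctrl libraries. The M1 EV libraries lay above all others, and the Ctrl libraries were spread more widely than those of the other groups. On the log2 scale the change over Ctrl was 0.15 ± 0.038 (SE, edgeR adjusted p = 0.00249), a rise of 10.9%. HSF1 is controlled mainly through its protein, which RNA levels do not show.

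Among the 10 genes of the cytosolic HSP70 system, 7 rose and BAG3 fell in M1 EV against Ctrl, and DNAJB6 and DNAJB4 did not pass the test. In this comparison 14.3% of all tested genes were called higher and 13.7% lower. HSPA8, the constitutive HSP70 and the most abundant of the 10 per length (1173 CPM per kb of transcript in M1 EV, 1049 CPM per kb in Ctrl), had 2909.9, 2858 and 2898 CPM in the M1 EV libraries, 2668, 2599.9 and 2626 CPM in the M0 EV libraries, 2604, 2648 and 2666 CPM in the M2 EV libraries, against 2529.7, 2618 and 2599.9 CPM in the Ctrl libraries. Its M1 EV libraries did not overlap those of any other group. Against Ctrl this was a log2 fold change of 0.16 ± 0.025 (SE, edgeR adjusted p = 3.87e-06), equal to 11.8%.

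HSPH1, a large HSP110 protein that acts as nucleotide exchange factor for HSP70, had 258, 264 and 267 CPM in the M1 EV libraries, 225, 217 and 223 CPM in the M0 EV libraries, 220.3, 227 and 229 CPM in the M2 EV libraries, against 214, 221 and 212 CPM in the Ctrl libraries. Each M1 EV value was above every value of the other groups, which lay close together. M1 EV against Ctrl gave a log2 fold change of 0.28 ± 0.034 (SE, edgeR adjusted p = 1.87e-08), or 21.8%, and HSPH1 had the largest rise of this list.

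The stress-inducible HSP70 genes HSPA1A and HSPA1B are near-identical neighbours on chromosome 6, and reads that fit both cannot be assigned with certainty. HSPA1A had 85.4, 80.4 and 73.3 CPM in the M1 EV libraries, 72.9, 67.9 and 67.9 CPM in the M0 EV libraries, 72.5, 69.3 and 63.8 CPM in the M2 EV libraries, against 68.2, 61.95 and 66.7 CPM in the Ctrl libraries. Its lowest M1 EV value was just above the highest M0 EV value. On the log2 scale the change over Ctrl was 0.28 ± 0.055 (SE, edgeR adjusted p = 0.000112).

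HSPA1B had 58.4, 55.8 and 54.5 CPM in the M1 EV libraries, 45.9, 47.5 and 44.5 CPM in the M0 EV libraries, 49.2, 48.2 and 45.99 CPM in the M2 EV libraries, against 48.5, 45.4 and 50.1 CPM in the Ctrl libraries, with no overlap between M1 EV and the other groups. Against Ctrl this was a log2 fold change of 0.23 ± 0.053 (SE, edgeR adjusted p = 0.00106). With the counts of both genes added, the log2 fold change was 0.26 ± 0.046 (edgeR adjusted p = 2.73e-05). Per kb of transcript these inducible genes stood far below HSPA8, at 32.1 and 22.3 CPM per kb in M1 EV libraries and 26.4 and 19.04 CPM per kb in Ctrl libraries for HSPA1A and HSPA1B in that order.

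BAG3, the cochaperone that links HSP70 to selective autophagy and is itself a heat shock gene, moved the other way. It had 141, 149.9 and 139 CPM in the M1 EV libraries, 164, 172 and 169 CPM in the M0 EV libraries, 167, 168 and 158 CPM in the M2 EV libraries, against 175, 169 and 176 CPM in the Ctrl libraries. All M1 EV libraries lay below every other library. M1 EV against Ctrl gave a log2 fold change of -0.27 ± 0.039 (SE, edgeR adjusted p = 7.04e-07), so that BAG3 fell by 0.27 on the log2 scale. It was also lower in M1 EV than in M0 EV (-0.23 ± 0.039, adjusted p = 1.8e-05) and in M2 EV (-0.19 ± 0.038, adjusted p = 0.000171).

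The remaining rises of the HSP70 system were smaller. HSPA4, another exchange factor of the HSP110 group, had a log2 fold change of 0.12 ± 0.035, edgeR adjusted p = 0.00886. The J-domain proteins DNAJA1 (0.10 ± 0.033, edgeR adjusted p = 0.0172) and DNAJB1 (0.10 ± 0.039, edgeR adjusted p = 0.0464) were close to the threshold. DNAJA1 missed the threshold when Ctrl replicate 1 (adjusted p = 0.0569) or M1 EV replicate 1 (0.111) was left out. DNAJB1 missed it when M1 EV replicate 1 (0.191) or 2 (0.148) or Ctrl replicate 1 (0.198) or 2 (0.0848) was left out, and with DESeq2 (0.0994). DNAJB6 (0.07, adjusted p = 0.234) and DNAJB4 (0.04, adjusted p = 0.793) did not pass, nor did the small heat shock protein HSPB1, which keeps unfolded proteins soluble without ATP (0.09, adjusted p = 0.0857).

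The HSP90 system gave 6 rises among 7 genes in M1 EV against Ctrl, where 14.3% of all tested genes were called higher. FKBP4, the immunophilin FKBP52 of steroid receptor complexes, had the largest fold change of all 45 members. It had 214, 207 and 199.8 CPM in the M1 EV libraries, 157, 159 and 156 CPM in the M0 EV libraries, 162, 159 and 161 CPM in the M2 EV libraries, against 157, 150.2 and 161 CPM in the Ctrl libraries. The M1 EV libraries were well separated, while the other 9 libraries lay between 150.2 and 162 CPM. On the log2 scale the change over Ctrl was 0.41 ± 0.037 (SE, edgeR adjusted p = 2.09e-11), a rise of 32.5%. Its relative FKBP5, an immunophilin of the same complexes that is induced by glucocorticoids, did not pass the test (-0.07, adjusted p = 0.32).

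HSP90AB1, the constitutive HSP90, had 1640.2, 1568 and 1610 CPM in the M1 EV libraries, 1364, 1339.5 and 1334 CPM in the M0 EV libraries, 1298, 1369 and 1351 CPM in the M2 EV libraries, against 1278, 1334 and 1316 CPM in the Ctrl libraries. No M1 EV library overlapped another group. Against Ctrl this was a log2 fold change of 0.29 ± 0.028 (SE, edgeR adjusted p = 9.75e-11), or 22.6%. The inducible form HSP90AA1 averaged 3488 ± 119 CPM in M1 EV and 3063 ± 77 CPM in Ctrl libraries (SD, n = 3 each), with a log2 fold change of 0.19 ± 0.028, edgeR adjusted p = 1.78e-06. Whether the 2 forms differed in their change was not tested. The HSP90 partners moved with it: STIP1, which hands clients from HSP70 to HSP90, rose by 0.28, AHSA1, which speeds its ATPase, by 0.27, and CHORDC1 by 0.19 on the log2 scale. CHORDC1 lost its call without M1 EV replicate 3 (edgeR adjusted p = 0.0616).

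In M1 EV against Ctrl, where 14.3% of all tested genes were called higher, all 4 mitochondrial chaperones rose. As a list they had the largest median log2 fold change, 0.32. Their summed level in M1 EV libraries was 121.9% to 126% of the Ctrl mean, while it was 101.1% to 105.9% in M0 EV and 101.8% to 104.5% in M2 EV libraries and 98.88% to 101.5% in Ctrl libraries. HSPD1, the folding chamber HSP60, had 805, 781 and 797 CPM in the M1 EV libraries, 675, 643 and 636 CPM in the M0 EV libraries, 634, 658 and 668 CPM in the M2 EV libraries, against 627, 654 and 624 CPM in the Ctrl libraries. M1 EV against Ctrl gave a log2 fold change of 0.32 ± 0.031 (SE, edgeR adjusted p = 9.87e-11), or 25.1%.

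HSPA9, the mitochondrial HSP70 mortalin that pulls proteins in through the inner membrane, had 531, 518 and 528 CPM in the M1 EV libraries, 455, 454 and 442 CPM in the M0 EV libraries, 443, 449 and 449.9 CPM in the M2 EV libraries, against 444, 439.9 and 429.9 CPM in the Ctrl libraries. In both genes every M1 EV library was above every other library. On the log2 scale the change over Ctrl was 0.26 ± 0.03 (SE, edgeR adjusted p = 5.93e-09). TRAP1, the mitochondrial HSP90, rose by 0.32 ± 0.037 on the log2 scale (SE, edgeR adjusted p = 8.84e-09).

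HSPE1, the HSP10 lid of the chamber, averaged 111 ± 9.04 CPM in M1 EV and 84.8 ± 3.18 CPM in Ctrl libraries (SD, n = 3 each). Its log2 fold change was 0.39 ± 0.05, edgeR adjusted p = 8.81e-08. HSPD1 (197486584 to 197500274) and HSPE1 (197500379 to 197503449) are neighbours on chromosome 2 of GRCh38, read in opposite directions with 104 bases between them in the RefSeq annotation. The heat shock matches capitalized above lie within HSPD1 as annotated, in the window of its inner start, which ends at 197500090. The window of HSPE1 holds none, but it begins only at 197500129, so that this depends on the length of the window. HSPD1, HSPE1, HSPA8 and HSP90AB1 have processed pseudogenes with near-identical sequence, and the sources used here do not say how reads shared with these were counted.

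**Figure D2:**
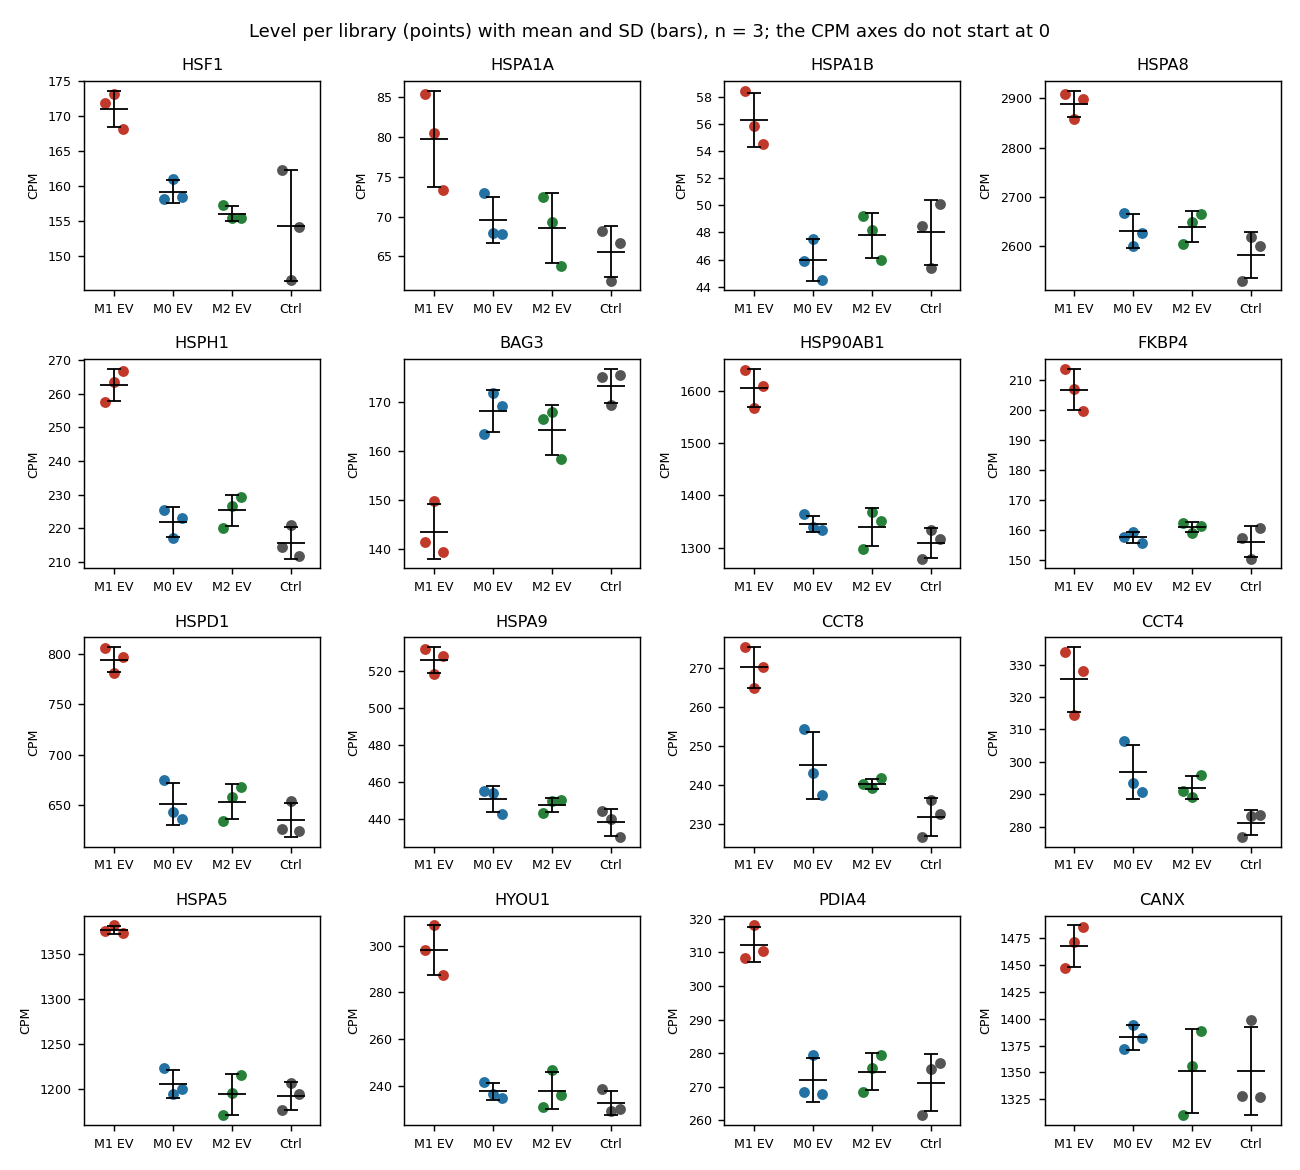
Level in CPM (vertical axes, not starting at 0) of 16 chaperone genes in each library, with points for the libraries and bars for the mean and SD of 3; groups run M1 EV, M0 EV, M2 EV, Ctrl from left to right. In 15 panels the M1 EV points lie above those of all other groups, and in the BAG3 panel they lie below. Most of the 16 genes were chosen by a small adjusted p in M1 EV against Ctrl, which favours such separation. Among all members, the M1 EV libraries overlapped those of Ctrl in 6 genes, of M0 EV in 10 and of M2 EV in 9. The share over all tested genes was not computed.

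Of the TRiC/CCT complex, all 7 listed subunits rose in M1 EV against Ctrl, where 14.3% of all tested genes were called higher. The log2 fold changes of the subunits lay within a narrow range, 0.17 (CCT2) to 0.22 (CCT8). The standard errors of the single genes were 0.029 to 0.035, and differences between subunits were not tested. CCT8 had 275, 265 and 270.1 CPM in the M1 EV libraries, 254, 243 and 237 CPM in the M0 EV libraries, 240.1, 239 and 242 CPM in the M2 EV libraries, against 227, 236 and 232 CPM in the Ctrl libraries. Against Ctrl this was a log2 fold change of 0.22 ± 0.035 (SE, edgeR adjusted p = 3.65e-06).

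CCT4 had 334, 314 and 328 CPM in the M1 EV libraries, 306, 293 and 291 CPM in the M0 EV libraries, 291, 289 and 296 CPM in the M2 EV libraries, against 277, 283 and 283 CPM in the Ctrl libraries. In both subunits the M1 EV libraries were the highest, and the M0 EV and M2 EV libraries lay above those of Ctrl without passing the test (CCT4 M0 EV against Ctrl 0.08 ± 0.034, adjusted p = 0.908; M2 EV against Ctrl 0.05 ± 0.034, adjusted p = 0.905). M1 EV against Ctrl gave a log2 fold change of 0.21 ± 0.034 (SE, edgeR adjusted p = 5.53e-06). CCT6A, the subunit outside the member list, rose by 0.22 ± 0.034 on the log2 scale (SE, edgeR adjusted p = 2.07e-06). Per kb of transcript, CCT3 stood highest of the 7 at 420.4 CPM per kb in M1 EV and 372 CPM per kb in Ctrl libraries, and CCT2 lowest at 124 CPM per kb in M1 EV and 111 CPM per kb in Ctrl libraries. The transcripts used for CCT3, PDIA4 and CRELD2 are RefSeq records annotated as noncoding. The coding transcripts of these genes had log2 ratios of M1 EV over Ctrl within 0.1 of theirs. These records appear to share most of their reads, so the closeness does not tell coding from noncoding RNA.

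In the ER, 9 of 15 members rose in M1 EV against Ctrl, none fell and 6 did not pass the test. Over all tested genes 14.3% were called higher and 13.7% lower. HYOU1, the ER member of the HSP110 group and an exchange factor of BiP, had the largest fold change in the ER. It had 298, 309 and 287 CPM in the M1 EV libraries, 242, 236 and 235 CPM in the M0 EV libraries, 231, 247 and 236 CPM in the M2 EV libraries, against 238, 229 and 229.9 CPM in the Ctrl libraries. On the log2 scale the change over Ctrl was 0.36 ± 0.036 (SE, edgeR adjusted p = 1.93e-10), or 28.3%.

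HSPA5, which encodes BiP, the ER HSP70 that also binds the sensors of the unfolded protein response, had 1376, 1383 and 1374 CPM in the M1 EV libraries, 1223, 1194 and 1199 CPM in the M0 EV libraries, 1170, 1195 and 1215 CPM in the M2 EV libraries, against 1176, 1206 and 1194 CPM in the Ctrl libraries. The M1 EV values lay within 10 CPM of each other and far from all others. Against Ctrl this was a log2 fold change of 0.21 ± 0.027 (SE, edgeR adjusted p = 8.91e-08), or 15.6%. Among other parts of the BiP system, the cochaperones SDF2L1 (0.34), DNAJC3 (0.27) and DNAJB11 (0.23) rose on the log2 scale, as did the secreted ER stress factor MANF (0.18), which lost its call without M1 EV replicate 1 (edgeR adjusted p = 0.0663). CRELD2 (0.18, adjusted p = 0.0565) passed only without M1 EV replicate 3 (0.0359). DNAJB9, a low gene at 3.06 CPM per kb in M1 EV and 3.09 CPM per kb in Ctrl libraries, stood at -0.02, adjusted p = 0.948.

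The lectins and disulfide isomerases of the ER gave 3 rises among 6 genes, where 14.3% of all tested genes were called higher. PDIA4 (ERp72), a disulfide isomerase, had 308, 318 and 310.4 CPM in the M1 EV libraries, 268, 279 and 268 CPM in the M0 EV libraries, 269, 276 and 279 CPM in the M2 EV libraries, against 261, 275 and 277 CPM in the Ctrl libraries. Its M1 EV values did not overlap the others. M1 EV against Ctrl gave a log2 fold change of 0.20 ± 0.034 (SE, edgeR adjusted p = 1.1e-05).

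CANX, the membrane-bound lectin calnexin that holds glycoproteins during folding, had 1447, 1471 and 1486 CPM in the M1 EV libraries, 1372, 1394 and 1382 CPM in the M0 EV libraries, 1310.4, 1356 and 1388 CPM in the M2 EV libraries, against 1328, 1399 and 1327 CPM in the Ctrl libraries. The lowest M1 EV value was above the highest Ctrl value by less than the spread of either M2 EV or Ctrl. On the log2 scale the change over Ctrl was 0.12 ± 0.029 (SE, edgeR adjusted p = 0.00124), or 8.66%. PDIA3, the isomerase that works with both lectins, had a log2 fold change of 0.09 ± 0.032, edgeR adjusted p = 0.0288, and missed the threshold when M1 EV replicate 1 (0.147) or 3 (0.071) or Ctrl replicate 1 (0.101) or 3 (0.075) was left out.

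The ER proteins that did not pass included highly expressed ones. HSP90B1, the ER HSP90 GRP94, averaged 1563 ± 52.1 CPM in M1 EV and 1514 ± 32.8 CPM in Ctrl libraries (log2 fold change 0.05, adjusted p = 0.272). CALR, the soluble lectin calreticulin, averaged 1429 ± 29.7 CPM in M1 EV and 1417 ± 25.3 CPM in Ctrl libraries (0.01, adjusted p = 0.789). P4HB, the classical disulfide isomerase, stood at 0.03, adjusted p = 0.517, and PDIA6 at 0.06, adjusted p = 0.189 on the log2 scale. The standard errors of these 4 genes were 0.027 to 0.031.

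**Figure D3:**
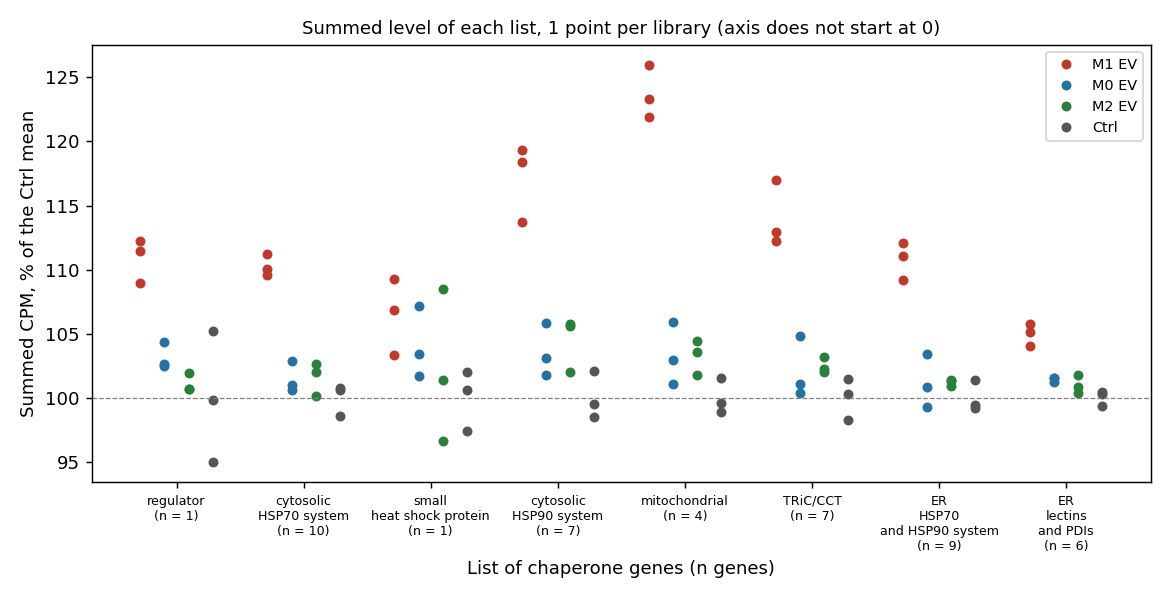
Summed level of each list of chaperone genes in each library, in percent of the mean of the Ctrl libraries (vertical axis, not starting at 0); within each list the points run M1 EV, M0 EV, M2 EV, Ctrl from left to right. The M1 EV libraries stand highest in every list except the single gene HSPB1, and lie at 121.9% to 126% for the mitochondrial genes and 104% to 105.7% for the ER lectins and disulfide isomerases.

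Vesicles of M0 or M2 macrophages gave no call among the members. In M0 EV against Ctrl, 0 of 45 were called by edgeR, DESeq2 or limma-voom, and 5 had an unadjusted p below 0.05; over all genes 0.00763% were called higher and 0.00763% lower, and 665 of 13113 had an unadjusted p below 0.05. The smallest adjusted p was that of TRAP1 (0.10 ± 0.037, adjusted p = 0.746). In M2 EV against Ctrl, 0 of 45 were called by any of these tools and 3 had an unadjusted p below 0.05, against 0.0153% called higher, 0.0305% called lower and 814 genes with an unadjusted p below 0.05. HSP90AA1 came closest (0.08 ± 0.028, adjusted p = 0.517). The median log2 fold change of the members was 0.033 in M0 EV and 0.031 in M2 EV, against 0.003 and 0.001 over all tested genes. In each, 39 of the 45 were above 0, and the share of all genes above 0 was not computed. Both comparisons share the 3 Ctrl libraries, so that these values are not independent of each other. In M2 EV against M0 EV no member passed by the 3 tools, none had an unadjusted p below 0.05, and the share called over all genes was 0% in each direction.

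The difference between vesicle types was tested directly. In M1 EV against M0 EV, 31 of 45 members were higher and 1, BAG3, was lower, where 12.5% of all genes were called higher and 12.8% lower. In M1 EV against M2 EV, 33 were higher and 1, again BAG3, was lower, where 12.6% of all genes were higher and 12% lower. The median log2 fold change of the members was 0.16 in both, against -0.006 and -0.003 over all genes. In all, 31 members were higher in M1 EV than in each of M0 EV, M2 EV and Ctrl. The share of all tested genes that were higher in M1 EV than in each of these groups was not computed, so this count has no baseline. These comparisons share the M1 EV libraries.

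The exceptions were few. HSPA4, DNAJB1 and PDIA3 rose against Ctrl but did not pass against M0 EV, and of these HSPA4 passed against M2 EV (0.11 ± 0.034, adjusted p = 0.016). DNAJB6, a J-domain protein that suppresses aggregation, passed against M2 EV alone (0.11 ± 0.039, adjusted p = 0.0371). For FKBP4 the log2 fold change was 0.39 ± 0.037, adjusted p = 4.24e-11 against M0 EV and 0.36 ± 0.036, adjusted p = 2.33e-10 against M2 EV. For HSPD1 it was 0.29 ± 0.031, adjusted p = 2.04e-09 against M0 EV and 0.28 ± 0.031, adjusted p = 3.03e-09 against M2 EV, and for HYOU1 0.33 ± 0.035, adjusted p = 1.76e-09 against M0 EV and 0.33 ± 0.035, adjusted p = 1.75e-09 against M2 EV.

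**Figure D4:**
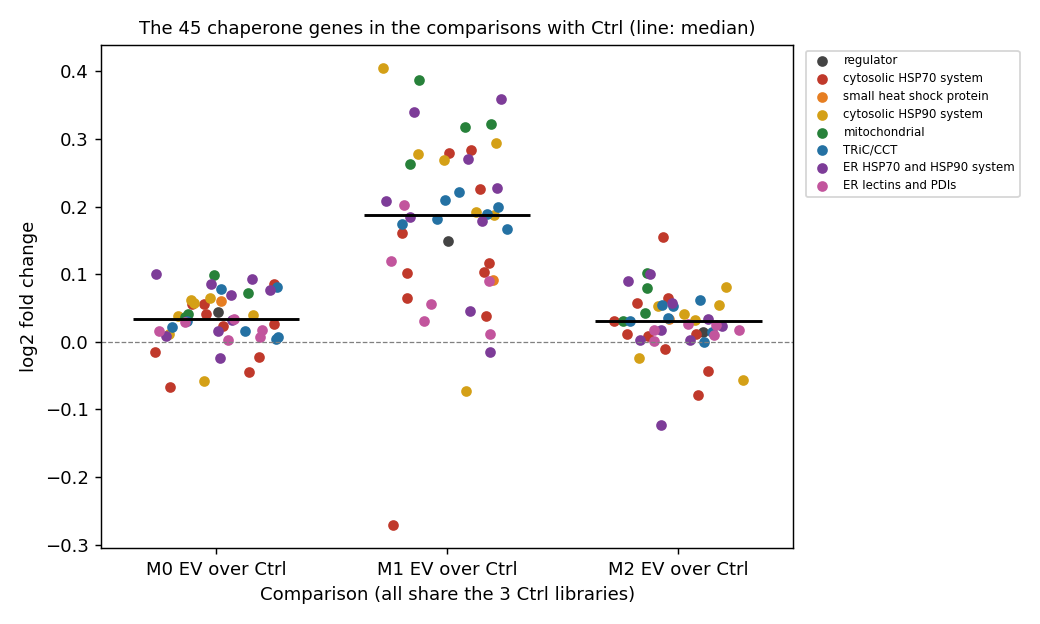
Log2 fold change (vertical axis) of the 45 chaperone genes, 1 point per gene coloured by list, in M0 EV, M1 EV and M2 EV over Ctrl, with a line at the median; the 3 comparisons share the Ctrl libraries. The medians are 0.033, 0.19 and 0.031, and BAG3 at -0.27 lies alone below the other members in M1 EV over Ctrl.

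Other genes of protein folding were counted from lists of the same compartments, in M1 EV against Ctrl, where 14.3% of all tested genes were called higher and 13.7% lower. Of 124 genes, 116 were tested, and 31 rose, 6 fell and 79 did not pass, with a median log2 fold change of 0.067, against 0.001 over all tested genes. Among 14 mitochondrial chaperones and proteases 8 rose and none fell, with a median of 0.16: CLPB, a disaggregase (0.29), CLPP and LONP1, proteases of the matrix (0.30 and 0.22), and DNAJC11 (0.20) had the smallest adjusted p. Among 35 tested cytosolic chaperones and cochaperones 10 rose and none fell (median 0.054), and those with the smallest adjusted p were NUDC, an HSP90 cochaperone (0.35), HSPBP1, an exchange factor of HSP70 (0.20), HSPA13, a microsomal HSP70 in spite of the list's name (0.21) and the HSP90 cochaperone p23, PTGES3 (0.16). Among 10 tested genes of prefoldin and CCT partners, CCT6A and the prefoldin subunit PFDN2 (0.36) rose and none fell, and 2 of 10 is near the share over all genes. The heat-inducible HSPA6 had too few counts to be tested.

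For ER genes outside the member list the counts were mostly near the shares over all tested genes, 14.3% higher and 13.7% lower, and nothing is read from them about these genes as a group. Of 27 tested folding enzymes and cochaperones 5 rose and 4 fell (median 0.072): the disulfide isomerase TXNDC5 (0.28), the disulfide reductase DNAJC10 (0.18) and the oxidase ERO1A (0.15) rose, and the sulfhydryl oxidase QSOX1 fell (-0.14). Of 30 sensors, factors and degradation genes of the unfolded protein response 6 rose and 2 fell (median 0.048), among them NPLOC4 (0.21), EDEM3 (0.24) and SEL1L (0.17), which act in ER-associated degradation, and WFS1, a membrane protein of the ER (-0.29). The following were named after their values were seen. ERN1, the sensor IRE1, rose by 0.46 ± 0.11 (SE, edgeR adjusted p = 0.00164). Among the 22 genes of this list that did not pass the test were XBP1 (0.07, adjusted p = 0.265), ATF4 (-0.02, adjusted p = 0.701), DDIT3 (0.06, adjusted p = 0.691) and HERPUD1 (-0.07, adjusted p = 0.247). Other genes of the response, such as SEL1L, EDEM3 and the members HSPA5 and HYOU1, rose. Levels of RNA do not show the activity of the response factors, and whether the response was engaged was not tested.

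Promoter sequence was compared with these calls for the 42 members in the RefSeq table (59 windows of 300 bases). A heat shock element core stood in 32.2% of the members' windows, against 13.5% of 34943 windows of all genes, and in 61.5% of the windows of the cytosolic HSP70 list. The ER stress element in the spacing searched stood in 13.6% of the members' windows, against 0.0773% of all windows. Among members it stood only in windows of ER members. By gene, 18 members had a heat shock core in a window, and 15 of them rose and none fell in M1 EV against Ctrl (median log2 fold change 0.19). Of the 24 without it 16 rose and 1 fell (median 0.19). Over all tested genes, with or without a match, 14.3% were called higher and 13.7% lower. The split of members by heat shock core depends on the length of the windows: HSPE1 is among the 24, with the matches of its neighbour HSPD1 just outside its window. The ER stress element, in the only spacing searched, stood in windows of 6 members: HSPA5, HSP90B1, CALR, CANX, PDIA6 and CRELD2. Of these 2 rose (median 0.088), while 6 of the 8 ER members with a window and no such match rose (median 0.22). This split depends on the spacing. The windows of HYOU1 and SDF2L1, which rose and are among the 8, hold CCAAT and the complement of CCACG closer together (cgtggtccaat and cgtggaccaat). Windows were not searched for such forms, so whether ER members with an ER stress element rose less often was not tested. The window of BAG3 held neither motif. A match is a description of letters and does not show that a factor binds there.

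The isoforms of the members were compared with the transcript used. Of the 45 genes, 19 had 1 transcript in the table and 26 had several, with 75 further transcripts at 1 CPM or more in both groups. In 74 of these the log2 ratio of M1 EV over Ctrl was within 0.1 of that of the transcript used. The exception was a transcript of DNAJB4, 0.11 lower. Isoforms share exons, and the same reads appear to be counted for several of them. The 12 transcripts of CANX, for example, each had 1408 to 1460 CPM in M1 EV. Close ratios were therefore nearly given, and isoforms are not independent measurements.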

How the data were processed

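The members and gene lists were chosen with earlier results of these data known. The deposited values are expected counts (multiples of 0.5) for 70507 RefSeq transcripts, not normalized by the authors. Per the submitters' processing notes, STAR 2.6.1b, HOMER 4.10 and hg38 were used, with no roles given. Per the labels' protocols, libraries were directional and poly(A)-enriched; the sources used here do not say whether counting used strand. The header of 1 column lacks a digit of the cell line's name; by its group and number it is M0 EV replicate 1. Transcripts were named with RefSeq GRCh38.p14 (69830) or GENCODE 29 (327); the 350 without a name (0.061% to 0.064% of counts) were left out. The transcript with the most counts stood for each gene, rounded to whole counts. GENCODE gave lengths for 43 of 45 members.

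edgeR 4.0.16 (R 4.3.3) was fitted over all 12 libraries with 1 term per group after its default filter, with TMM scaling (factors 0.993 to 1.007; biological coefficient of variation 2.59%; 8 residual degrees of freedom). The quasi-likelihood test was 2-sided and adjusted over 13113 genes within each comparison; SE is the log2 fold change divided by the root of F. CPM are TMM-scaled. The step was run on counts simulated from its own fitted model. The check on recovery covered only fold changes larger than those of the members, so it does not show how well small changes are found. Alternatives were RLE and upper-quartile scaling, DESeq2 1.42.0, limma-voom (limma 3.58.1), no filter, summed transcripts, 2-group fits, a replicate block and each library left out.

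Values per library are given for HSF1, HSPA1A, HSPA1B, HSPA5 and, per list, the 2 higher and 1 lower called members with the smallest adjusted p in M1 EV against Ctrl; from each other list up to 4 called genes and CCT6A are named. The protein ends listed in the plan are not reported here.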

Additional observations from a re-analysis of the deposited data

How the results depend on the processing

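In M1 EV against Ctrl the number of members called higher was 34, and 32 to 34 with RLE or upper-quartile scaling, DESeq2, limma-voom, no filter, summed transcripts, 2-group fits or the replicate block. Leaving out each library of these groups gave 30 to 33, and 1 lower in every case. In M1 EV against M0 EV the counts higher were 29 to 31 over the same settings and 28 to 31 with a library left out; in M1 EV against M2 EV they were 31 to 33 and 30 to 34. In both, 1 was lower throughout. In the comparisons without M1 EV the count was 0 in both directions under every setting run. The counts over all genes under these settings are not given here, so the counts of members have no baseline per setting. No called member changed sign. Of the 35 members called, 30 kept the call under every alternative, and DNAJA1, DNAJB1, CHORDC1, MANF and PDIA3 lost it under at least 1; the cause was not tested. CRELD2 gained a call under 1. With summed transcripts DNAJB1 and PDIA3 had adjusted p = 0.0926 and 0.0682, with 2-group fits 0.0719 and 0.055, and DNAJB1 had 0.0631 with no filter.

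Same-numbered libraries of different groups deviated together weakly at most (r of -0.048 to 0.09 in 18 pairs, and -0.068 to 0.065 for other numbers). Of 12 libraries, 6 had their highest mean r with their own number, and the numbers were not taken as pairs. Same-numbered pairs among the vesicle groups mostly had r above 0, and those with Ctrl mostly below 0. A weak pairing among the vesicle groups alone was not tested. With the replicate block 34 members were higher and 1 lower in M1 EV against Ctrl. For low genes such as DNAJB9 (standard error 0.12) depth limits what could be detected.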
